A study of Mus musculus with 18 samples.

Results

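Jchain, Mzb1, Sdc1, Derl3, Fkbp11 and Txndc5 are 6 genes whose mRNAs are abundant in plasma cells, the antibody-secreting descendants of B cells. They were chosen by gene name, as a readout of plasma cell content across genotypes, and are 6 of the 28096 Entrez genes counted. RNASeq was performed on mouse splenic B cells of WT and Ubqln1-/- mice of the C57BL/6 N strain, at least 8 weeks old, with 3 libraries in each of 6 groups and 18 in all. Ubqln1-/- mice derive from ES cells from which exon 2 of Ubqln1 was deleted, so every cell of the animal carries the deletion. B cells were purified with an isolation kit and cultured for 4 hr without stimulus (resting), with F(ab)2 fragments of anti-IgM at 10 μg/mL, which crosslink the B cell receptor, or with LPS of the K12 strain of E. coli at 20 μg/mL, a ligand of TLR4. Wells stimulated in triplicate were pooled before RNA purification, and the study describes its libraries as independent experiments. Neither the genotype nor the treatment was confined to plasma cells, and no antibody-secreting cells were sorted.

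A plasma cell arises when an activated B cell silences its B cell program and expands its endoplasmic reticulum (ER) to make antibody. Immunoglobulin chains enter the ER through the translocation channel, are folded and disulfide-bonded there by chaperones and oxidoreductases, and are degraded if they fail. The transcription factors IRF4, BLIMP1 (Prdm1) and XBP1 drive this change, and XBP1 turns on many genes of the secretory pathway. Of the genes described here, Jchain encodes the joining chain that links IgM and IgA into polymers, Mzb1 an ER chaperone of marginal zone B, B-1 and plasma cells, and Sdc1 the surface proteoglycan CD138. Derl3 encodes a derlin of the ER degradation pathway, Fkbp11 an ER prolyl isomerase, and Txndc5 an ER disulfide isomerase. None of the 6 is restricted to plasma cells.

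In the GENCODE annotation on the GRCm38.p6 assembly, Jchain lies at chr5:88519809-88527891 on the minus strand. Sdc1 lies at chr12:8771323-8793715 and Derl3 at chr10:75893413-75895941, both on the plus strand. Fkbp11 lies at chr15:98724366-98728198 and Txndc5 at chr13:38500079-38528824, both on the minus strand. All are protein-coding, and the counts cover their exons. Exons of Mzb1 share 695 bases with annotated exons of SPATA24 on the same strand. Exons of Txndc5 share 224 bases with Bmp6 and 311 bases with Gm31834 on the opposite strand. Mzb1 and SPATA24 lie on the same strand, so strand could not separate reads in their shared stretch. The exonic width counted for Mzb1 was 906 bases. The library kit does not mark strand, so reads in the shared stretches of Txndc5 cannot be told apart between the genes either. Over the 18 libraries, Spata24 was counted at 4.77 to 9.38 CPM and Bmp6 at 0 to 0.492 CPM, where CPM is the count scaled to 1000000 counts per library after TMM normalization.

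Because XBP1 and ATF6 act through known DNA motifs, RefSeq promoter windows (300 bases, from 250 before the transcription start to 50 after it) were searched on both strands. The windows used covered 5 of the 6 genes with 8 windows, and Mzb1 was not analysed here. The ER stress response element ERSE, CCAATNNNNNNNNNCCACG, was present in 39 of 32851 windows over all genes (0.119%), and 1 of the 39 belonged to Derl3. It began 156 bases before the RefSeq transcription start, which differs from the GENCODE gene start given above. No annotated exon lies in the stretch shown. The stretch is chr10:75893212-75893290 of GRCm38 on the plus strand, with the element in capitals, where it reads as the reverse complement of the letters above:
Derl3: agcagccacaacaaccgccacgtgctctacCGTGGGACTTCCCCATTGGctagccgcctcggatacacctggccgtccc
The core of the unfolded protein response element, TGACGTG, was present in 661 windows (2.01%), among them 1 window of Txndc5 and 1 of Fkbp11. These are matches of letters, and binding was not measured.

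The 18 libraries held between 15368941 and 41072854 counts, and 14161 genes passed the expression filter, all 6 plasma cell genes among them. Ubqln1 was measured at 229.5 to 339.2 CPM in WT libraries and at 91.4 to 128.4 CPM in Ubqln1-/- libraries, so the libraries separated as labelled. The counts cover all exons of the gene, and no value for the deleted exon alone was computed. The libraries were those of B cells: the 14 genes of B cell identity summed to between 11810 and 21970 CPM, and Cd79a was at least 334.8 CPM in every library. Markers of T and NK cells (10 genes) summed to 1.96 to 3.27 CPM and those of red cells and platelets (7 genes) to 6.48 to 10.1 CPM. The 12 myeloid markers summed to 32.9 to 70.2 CPM, with Adgre1 at up to 39.5 CPM and Flt3 at up to 24.7 CPM, while S100a8 reached 0.332 CPM and Ly6g 0.142 CPM. Tnfrsf17, the BAFF and APRIL receptor of plasma cells known as BCMA, was detected with 0 to 8 counts per library and did not pass the filter. Heavy and light chain constant genes were not analysed here. In these bulk samples, fewer plasma cells and less RNA per cell cannot be told apart.

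Levels between genes can be compared only per length, as RPKM. In resting WT cells Mzb1 was the highest of the 6 at 266.5 ± 35.7 RPKM (SD, n = 3). Jchain followed at 117.0 ± 59.9 RPKM, Txndc5 at 60.8 ± 8.24 RPKM and Sdc1 at 20.1 ± 5.17 RPKM. Derl3 (3.00 ± 0.464 RPKM) and Fkbp11 (2.74 ± 0.264 RPKM) were lowest, and their libraries overlapped, while every other neighbouring pair in this order was separated. Resting Ubqln1-/- cells kept this order with 2 exceptions: Jchain (62.2 ± 6.55 RPKM) overlapped Txndc5 (59.3 ± 4.29 RPKM), and Fkbp11 and Derl3 changed places while still overlapping. Anti-IgM brought the upper genes close together in WT cells, where Jchain (108.8 ± 53.5 RPKM), Mzb1 (93.5 ± 12.8 RPKM) and Txndc5 (85.5 ± 11.5 RPKM) overlapped. With LPS, Mzb1 was highest in both genotypes, at 139.9 ± 17.4 RPKM in WT and 148.5 ± 16.5 RPKM in Ubqln1-/- cells, and in WT cells its libraries overlapped those of Jchain. Counts behind these levels ranged from 1241 to 8259 for Jchain, 1674 to 6619 for Mzb1, 171 to 1826 for Sdc1 and 2501 to 6756 for Txndc5. Derl3 (43 to 114 counts) and Fkbp11 (10 to 48 counts) were measured with far fewer reads, and counting error alone is a larger part of their spread.

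**Figure D1:**
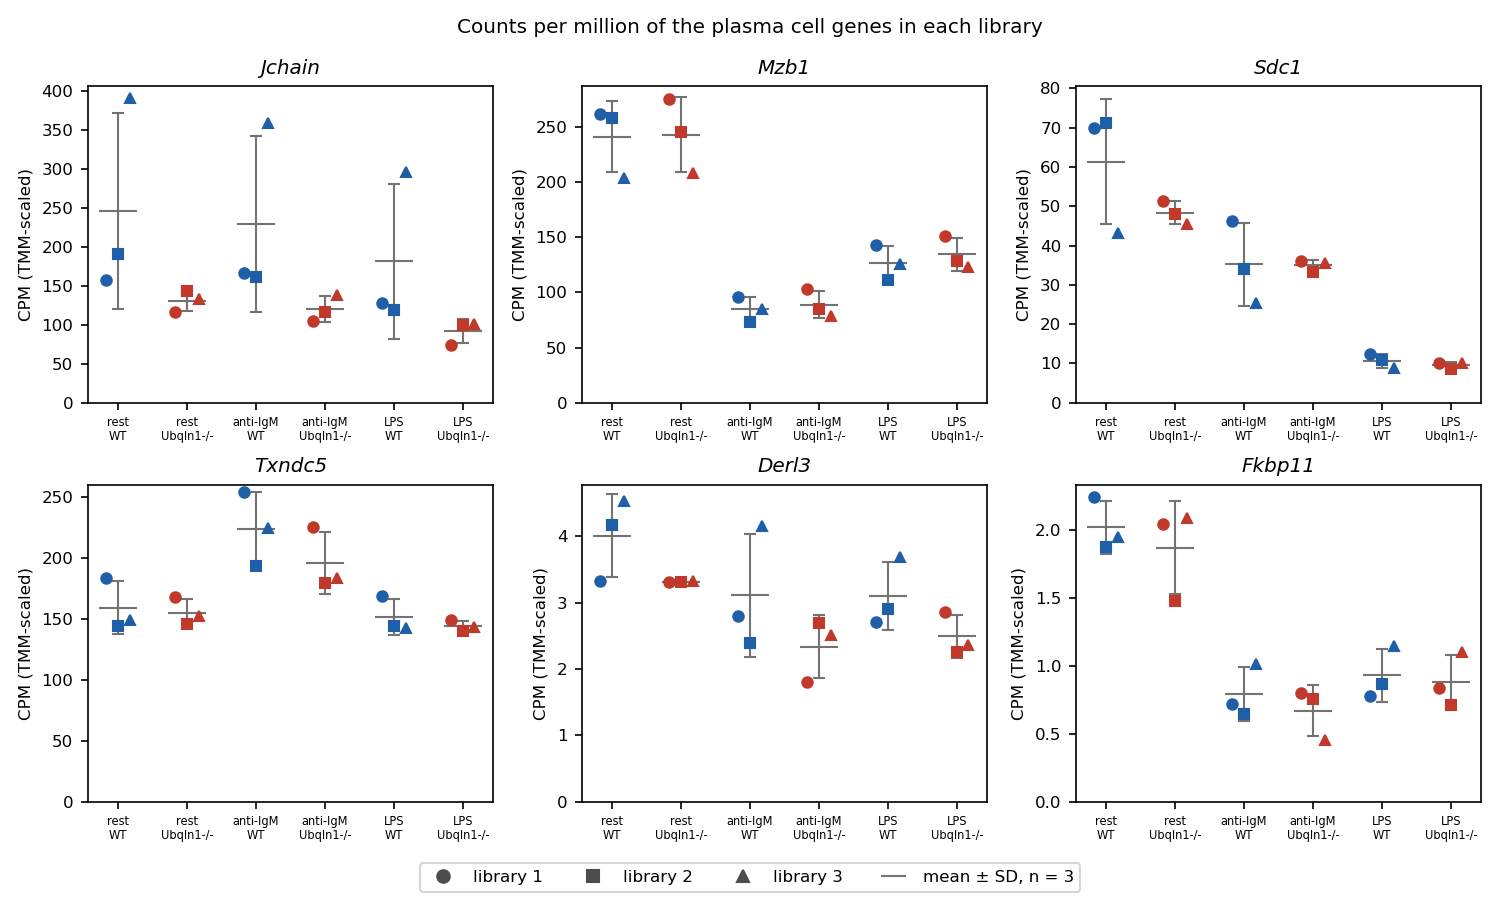
CPM (TMM-scaled, vertical axis from 0) of the 6 plasma cell genes in each of the 18 libraries, by group, with WT in blue and Ubqln1-/- in red. Symbols mark the library number and grey lines the mean ± SD of 3 libraries. Mzb1 is lower in every stimulated library than in every resting library, Sdc1 falls to 12.4 CPM or less with LPS, and the WT libraries numbered 3 hold the highest Jchain.

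The first question was how the 6 genes responded to the B cell receptor and to TLR4 within 4 hr. Most of what changed went down. After anti-IgM in WT cells, Mzb1, Sdc1 and Fkbp11 fell and Txndc5 rose, while in Ubqln1-/- cells the same 4 genes changed in those directions and Derl3 fell as well. After LPS, Mzb1, Sdc1 and Fkbp11 fell in both genotypes and none of the 6 rose. Myeloid markers moved in the same comparisons: of 6 tested, Csf1r, Adgre1, Itgam and Lyz2 were called lower with LPS in both genotypes (median log2 fold change of the 6, -1.06 in WT and -1.07 in Ubqln1-/- cells), and Adgre1 and Itgam with anti-IgM. Cd68 was called higher with anti-IgM in both genotypes and with LPS in WT cells, and Flt3 with LPS in both. Their part in the changes of the plasma cell genes was not tested. Jchain did not pass the test in any of these comparisons, and the alternatives that changed this are given with its values. A gene was called changed at an adjusted p under 0.05 in edgeR's quasi-likelihood test over all 14161 genes, and the comparisons of anti-IgM and of LPS with resting cells share the resting libraries.

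Against the background of all genes, these counts read as follows. With anti-IgM in WT cells, 1 of the 6 was called higher and 3 lower, where 32.4% of all genes tested were called higher and 32.2% lower. For Ubqln1-/- cells these were 1 higher and 4 lower (32.9% and 32.4% of all genes). With LPS, 0 were higher and 3 lower in WT (31.2% and 30.1%) and likewise 0 and 3 in Ubqln1-/- cells (30.6% and 30.2%). Between LPS and anti-IgM, 1 was higher with LPS and 2 lower in WT (17.4% and 15.0%), and again 1 and 2 in Ubqln1-/- cells (16.8% and 14.5%). The median log2 fold change of the 6 genes was -0.59 with anti-IgM and -0.69 with LPS in WT cells, and over all genes tested it was -0.01 in both. The Ubqln1-/- medians were -0.49 and -0.69, against -0.02 and -0.02 over all genes. With a list of 6 and about 1 gene in 3 called in each direction, a count of 3 lower is not far from the background.

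Mzb1, the ER chaperone, fell with both stimuli in both genotypes. It was measured at 262.2, 257.9 and 204.2 CPM in the resting WT libraries numbered 1 to 3, at 96.3, 73.0 and 84.8 CPM after anti-IgM, and at 143.0, 111.5 and 125.7 CPM after LPS. The Ubqln1-/- values were 275.9, 245.8 and 208.3 CPM at rest, 103.0, 85.4 and 78.8 CPM with anti-IgM, and 151.5, 128.7 and 123.4 CPM with LPS. Every stimulated library lay below every resting library, and every LPS library above every anti-IgM library of either genotype. Anti-IgM left 35.1% of the resting mean in WT and 36.6% in Ubqln1-/- cells, with log2 fold changes of -1.51 ± 0.14 (SE, edgeR adjusted p = 8.54e-08) and -1.45 ± 0.14 (edgeR adjusted p = 1.36e-07). LPS left 52.5% and 55.3%, with log2 fold changes of -0.93 ± 0.14 (edgeR adjusted p = 2.08e-05) and -0.86 ± 0.14 (edgeR adjusted p = 5.19e-05). Compared directly, Mzb1 was higher with LPS than with anti-IgM by 0.58 ± 0.14 on the log2 scale in WT cells (edgeR adjusted p = 0.00357) and by 0.59 ± 0.14 in the knockout (edgeR adjusted p = 0.00328).

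Sdc1, which encodes CD138, the surface protein by which plasma cells are commonly recognised, showed the largest change of the 6. Resting WT libraries held 69.8, 71.2 and 43.1 CPM, anti-IgM libraries 46.3, 34.1 and 25.3 CPM, and LPS libraries 12.4, 10.8 and 8.88 CPM. Resting Ubqln1-/- libraries held 51.4, 48.2 and 45.5 CPM, anti-IgM libraries 36.0, 33.2 and 35.5 CPM, and LPS libraries 10.2, 8.61 and 9.99 CPM. The LPS values lay apart from all others, whereas the ranges of anti-IgM and resting libraries overlapped in WT cells. LPS left 17.4% of the resting mean in WT (log2 fold change -2.52 ± 0.20, edgeR adjusted p = 3.47e-08) and 19.8% in Ubqln1-/- cells (-2.34 ± 0.21, edgeR adjusted p = 1.04e-07). These are the only changes of the 6 genes that exceed a log2 fold change of 2, the threshold used by the study. Anti-IgM left 57.4% in WT cells (-0.80 ± 0.19, edgeR adjusted p = 0.00141) and 72.2% in Ubqln1-/- cells (-0.47 ± 0.19, edgeR adjusted p = 0.0373). The last call was lost when the anti-IgM library numbered 1, 2 or 3 or the resting library numbered 1 or 2 was left out, with log2 fold changes between -0.49 and -0.42, and when every gene with at least 1 count was tested (-0.44, edgeR adjusted p = 0.0531). For LPS against anti-IgM, the Sdc1 log2 fold change was -1.72 ± 0.20 in WT (edgeR adjusted p = 3.3e-06) and -1.87 ± 0.21 in Ubqln1-/- cells (edgeR adjusted p = 2.42e-06). Mzb1 and Sdc1 ranked the stimuli in opposite order: Mzb1 was lowest with anti-IgM and Sdc1 with LPS, in both genotypes.

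Fkbp11, the prolyl isomerase, fell to a similar degree with either stimulus, at low levels. Resting values were 2.24, 1.87 and 1.94 CPM in WT and 2.04, 1.48 and 2.09 CPM in Ubqln1-/- cells. After anti-IgM they were 0.718, 0.644 and 1.01 CPM in WT and 0.799, 0.752 and 0.456 CPM in Ubqln1-/- cells. After LPS they were 0.775, 0.864 and 1.15 CPM in WT and 0.832, 0.714 and 1.10 CPM in Ubqln1-/- cells. No stimulated library reached the lowest resting library of its genotype. With anti-IgM the log2 fold changes for WT and Ubqln1-/- cells were -1.36 ± 0.25 and -1.44 ± 0.25 (edgeR adjusted p = 0.000165 and 8.49e-05), and -1.12 ± 0.24 and -1.10 ± 0.25 with LPS (edgeR adjusted p = 0.000651 and 0.00137). For LPS against anti-IgM the log2 fold changes were 0.24 ± 0.26 (WT) and 0.35 ± 0.28 (Ubqln1-/-), with edgeR adjusted p = 0.531 and 0.416. No difference between the stimuli was called, on 10 to 48 counts per library.

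Txndc5, the disulfide isomerase, was the only gene of the 6 to rise. It was at 183.8, 144.4 and 148.9 CPM in resting WT cells, at 253.6, 193.3 and 224.0 CPM with anti-IgM and at 168.6, 143.9 and 142.0 CPM with LPS. The Ubqln1-/- libraries held 167.5, 145.6 and 152.2 CPM at rest, 224.9, 179.2 and 183.5 CPM with anti-IgM and 148.6, 140.1 and 142.9 CPM with LPS. All anti-IgM libraries exceeded all resting and LPS libraries of their genotype. Anti-IgM raised it 1.41-fold in WT cells (log2 0.49 ± 0.11, edgeR adjusted p = 0.00108) and 1.26-fold in Ubqln1-/- cells (log2 0.34 ± 0.11, edgeR adjusted p = 0.0151). Without the Ubqln1-/- anti-IgM library numbered 1 the latter was 0.23 and without the resting library numbered 2 it was 0.30, and in both cases the call was lost. LPS against resting gave -0.07 ± 0.11 and -0.11 ± 0.11 (edgeR adjusted p = 0.62 and 0.424), and Txndc5 was lower with LPS than with anti-IgM, with log2 fold changes of -0.56 ± 0.11 for WT and -0.45 ± 0.11 for Ubqln1-/- (edgeR adjusted p = 0.000891 and 0.00592).

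Derl3, the derlin, moved little and on few counts. Resting WT libraries held 3.32, 4.17 and 4.53 CPM, anti-IgM libraries 2.79, 2.39 and 4.15 CPM, and LPS libraries 2.71, 2.90 and 3.69 CPM, so all 3 groups overlapped. Resting Ubqln1-/- libraries lay at 3.32, 3.31 and 3.32 CPM (70, 74 and 70 counts), nearly equal to each other, while the anti-IgM libraries lay at 1.80, 2.69 and 2.51 CPM and the LPS libraries at 2.85, 2.26 and 2.36 CPM. Here every stimulated library was below every resting library. The log2 fold change with anti-IgM was -0.51 ± 0.21 in Ubqln1-/- cells (edgeR adjusted p = 0.0425) and -0.39 ± 0.21 in WT cells (edgeR adjusted p = 0.109). The first call was lost in 5 of the 6 fits that left out 1 of its libraries, the exception being the anti-IgM library numbered 2, and when every gene with at least 1 count was tested. Over its alternatives the adjusted p (edgeR, limma with voom or DESeq2) ranged from 0.0209 to 0.196, and 7 of 13 made the call. The second was made (-0.64, edgeR adjusted p = 0.0117) when the WT anti-IgM library numbered 3 was left out. It was also made when the WT libraries numbered 3 were left out in all conditions, so 2 of 14 alternatives made this call. With LPS the values were -0.38 ± 0.20 in WT and -0.42 ± 0.22 in Ubqln1-/- cells (edgeR adjusted p = 0.11 and 0.1).

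Jchain, the joining chain, passed the edgeR test with neither stimulus when libraries were not paired by number. Its WT libraries spread widely. Resting WT libraries held 157.7, 190.0 and 390.0 CPM, anti-IgM libraries 166.8, 160.7 and 358.6 CPM, and LPS libraries 128.2, 119.3 and 295.6 CPM. For Ubqln1-/- the resting libraries held 116.0, 143.3 and 132.8 CPM, the anti-IgM libraries 105.2, 115.6 and 138.3 CPM, and the LPS libraries 73.8, 99.5 and 100.8 CPM. In WT cells the library numbered 3 stood above the others of its group in all 3 conditions, and in Ubqln1-/- cells the LPS libraries lay below all others. The log2 fold change with anti-IgM was -0.11 ± 0.37 in WT and -0.13 ± 0.37 in Ubqln1-/- cells (edgeR adjusted p = 0.813 and 0.778). With LPS it was -0.44 ± 0.37 and -0.52 ± 0.37 (edgeR adjusted p = 0.31 and 0.245). Libraries with the same number deviated together within a genotype. The block on the number used here gave each number the same effect in both genotypes. For Jchain, the libraries numbered 3 deviated from their group means by 0.78, 0.75 and 0.84 in WT cells on the log2 scale. In Ubqln1-/- cells the deviations were 0.03, 0.22 and 0.16 (resting, anti-IgM and LPS). With this block the LPS value was -0.53 ± 0.22 in Ubqln1-/- cells (edgeR adjusted p = 0.0385), which passed the test. In WT cells it was -0.45 ± 0.21 (edgeR adjusted p = 0.0656), which did not. Within numbers, the LPS library was below the resting library in each of the 6 pairs, by log2 ratios of -0.30, -0.67 and -0.40 for WT numbers 1 to 3 and of -0.65, -0.53 and -0.40 for Ubqln1-/-. Leaving out the WT LPS library numbered 3 gave -0.99 (edgeR adjusted p = 0.0241) for WT. Leaving out the WT library numbered 3 in all conditions gave -0.49 (edgeR adjusted p = 0.0138). A fit to only the libraries compared gave -0.51 for Ubqln1-/- with LPS against resting (edgeR adjusted p = 0.00409) and -0.40 with LPS against anti-IgM (edgeR adjusted p = 0.041).

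**Figure D2:**
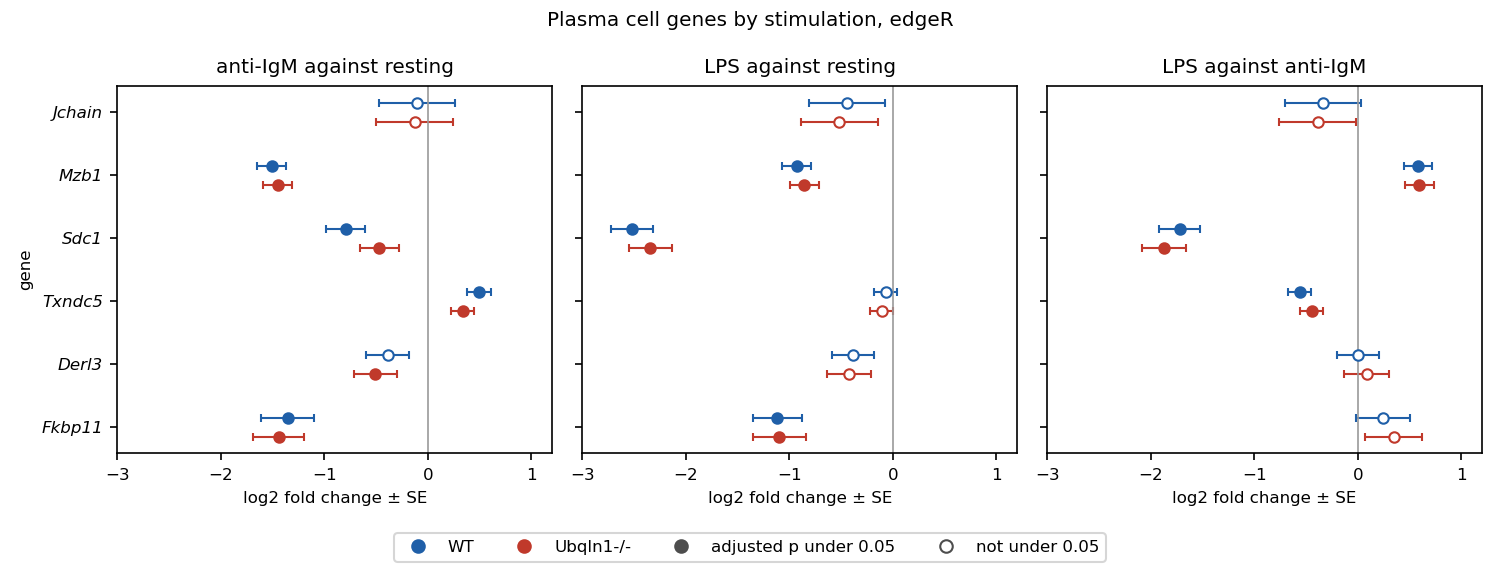
Log2 fold change ± SE (horizontal axis, edgeR) of each plasma cell gene for anti-IgM against resting, LPS against resting and LPS against anti-IgM, in WT (blue) and Ubqln1-/- cells (red). Filled points have an adjusted p under 0.05. Mzb1, Sdc1 and Fkbp11 lie left of 0 in both comparisons with resting cells, Txndc5 lies right of 0 with anti-IgM, and Sdc1 reaches -2.52 with LPS in WT cells.

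The next question was whether the genes differed between genotypes, the purpose for which they were chosen, so the values are given as a description. In the mean, Ubqln1-/- cells were below WT cells in 15 of 18 comparisons (6 genes in 3 conditions), and the 3 exceptions were those of Mzb1, at 101%, 105% and 106% of WT. The share of all genes with a lower Ubqln1-/- mean was not computed. The 3 comparisons of a gene are not independent, since same-numbered libraries deviated together across conditions. Median log2 fold changes at rest, with anti-IgM and with LPS were -0.19, -0.19 and -0.13 for the 6 genes. Over all genes they were 0.002, 0.002 and 0.004. None of the 6 genes was called in any condition, where 0.0565% of all genes were called at rest, 0.0989% with anti-IgM and 0.0424% with LPS. At an unadjusted p under 0.05, 1 of the 6 genes, Jchain, passed in each condition, beside 597, 728 and 557 of all 14161 genes, and voom with limma and DESeq2 called 0 of the 6 as well. Since the genes were picked for this contrast, nothing further is read from these counts.

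Jchain had the largest differences of the 6. Its log2 fold change, Ubqln1-/- against WT, was -0.91 ± 0.37 (SE, n = 3 against 3) at rest, -0.93 ± 0.37 with anti-IgM and -0.98 ± 0.37 with LPS, or 53.2%, 52.3% and 50.5% of the WT mean. In each condition all Ubqln1-/- libraries were below all WT libraries, a separation that 3.44%, 5.08% and 3.35% of all genes showed in the same direction at rest, with anti-IgM and with LPS. The margins were small, since the highest Ubqln1-/- library held 143.3 CPM at rest where the lowest WT library held 157.7 CPM, and the corresponding values were 138.3 and 160.7 CPM with anti-IgM and 100.8 and 119.3 CPM with LPS. The size of the difference rested on the WT libraries numbered 3. Without these 3 libraries, a choice made after the data were seen, the log2 fold changes were -0.41 ± 0.14 at rest, -0.45 ± 0.14 with anti-IgM and -0.44 ± 0.14 with LPS. With the library number as a block they were -0.79, -0.84 and -0.88.

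Among the other 5 genes, the log2 fold changes between genotypes lay between -0.40 and 0.09 over the 15 comparisons. Derl3 differed by -0.28 ± 0.21 at rest, -0.40 ± 0.21 with anti-IgM and -0.32 ± 0.21 with LPS. Its groups did not overlap at rest but nearly touched. The highest Ubqln1-/- library held 3.321 CPM (70 counts) and the lowest WT library 3.324 CPM (52 counts). Of all genes, 3.44% were separated in this direction at rest. Without the WT libraries numbered 3 the Derl3 values were -0.19, -0.15 and -0.18. Sdc1 differed by -0.34 ± 0.19 at rest, -0.02 ± 0.19 with anti-IgM and -0.17 ± 0.22 with LPS, with overlapping groups, and here the same omission gave larger differences of -0.54, -0.20 and -0.28, the WT libraries numbered 3 being the lowest of their groups. Txndc5 and Fkbp11 differed by -0.19 ± 0.11 and -0.19 ± 0.28 with anti-IgM and by less in the other conditions. All groups of Mzb1, Txndc5 and Fkbp11 overlapped between genotypes. The response to a stimulus was not called different between genotypes for any of the 6 genes, nor for any of the 14161 genes (0.0% called for anti-IgM and 0.0% for LPS by edgeR, voom with limma and DESeq2). At an unadjusted p under 0.05, 0 of the 6 passed, beside 140 and 220 of all genes. The 12 differences of response lay between -0.16 and 0.33 on the log2 scale, with SEs of 0.16 to 0.52.

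**Figure D3:**
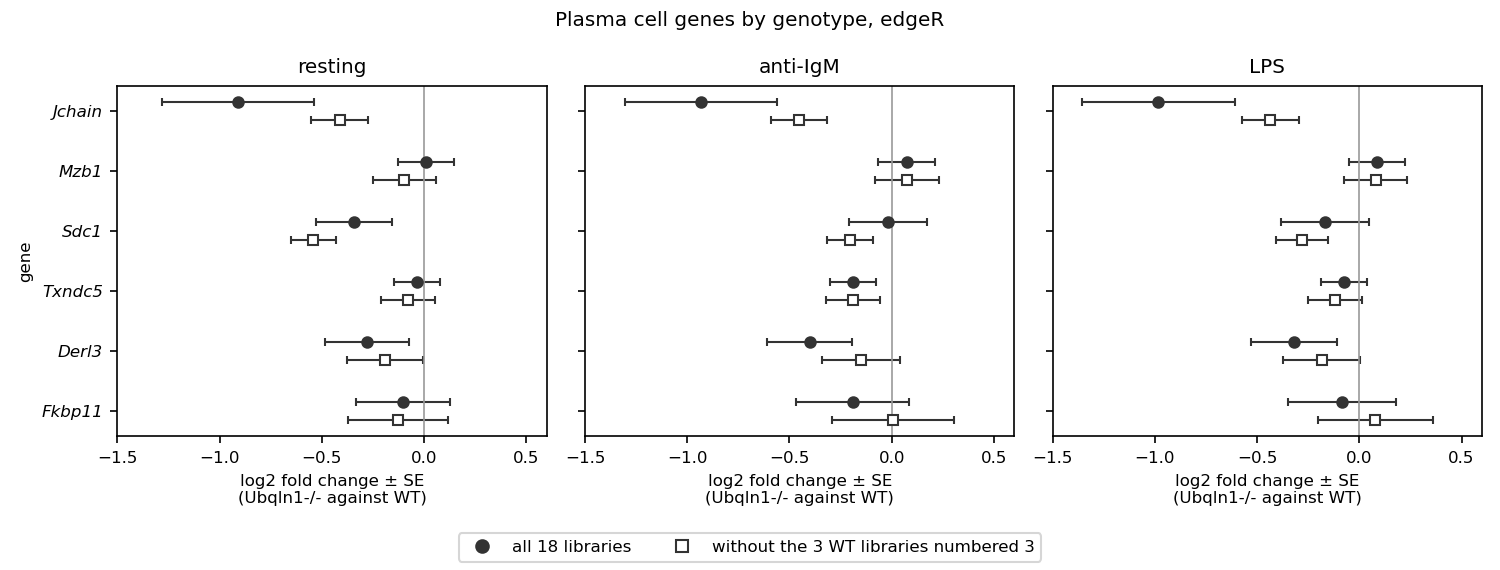
Log2 fold change ± SE (horizontal axis, edgeR) of Ubqln1-/- against WT cells for each plasma cell gene at rest, with anti-IgM and with LPS. Filled circles use all 18 libraries and open squares leave out the 3 WT libraries numbered 3. Jchain moves from about -0.91 to -0.41 at rest when these libraries are left out, while Mzb1, Txndc5 and Fkbp11 stay near 0.

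Libraries of one number deviated from those of other numbers, and the direction of these deviations varied among the 6 genes. Mzb1 and Txndc5 were highest in the library numbered 1 in all 3 conditions of both genotypes. Jchain and Derl3 were highest in the library numbered 3 in all 3 conditions of WT cells, and Sdc1 was lowest there. Relative to the group mean of log2 CPM, the WT library numbered 3 deviated by 0.78, 0.75 and 0.84 for Jchain and by -0.47, -0.43 and -0.25 for Sdc1 at rest, with anti-IgM and with LPS. After group means were subtracted, Pearson's r over the 18 libraries ranged from -0.84 (Jchain and Sdc1) to 0.74 (Mzb1 and Txndc5), with 8 of 15 pairs above 0, and Jchain and Derl3 reached 0.70. Without that subtraction the highest r was 0.88 for Mzb1 and Fkbp11 and the lowest -0.49 for Mzb1 and Txndc5. These correlations are descriptions, since libraries of a group share their condition and those of a number deviate together.

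**Figure D4:**
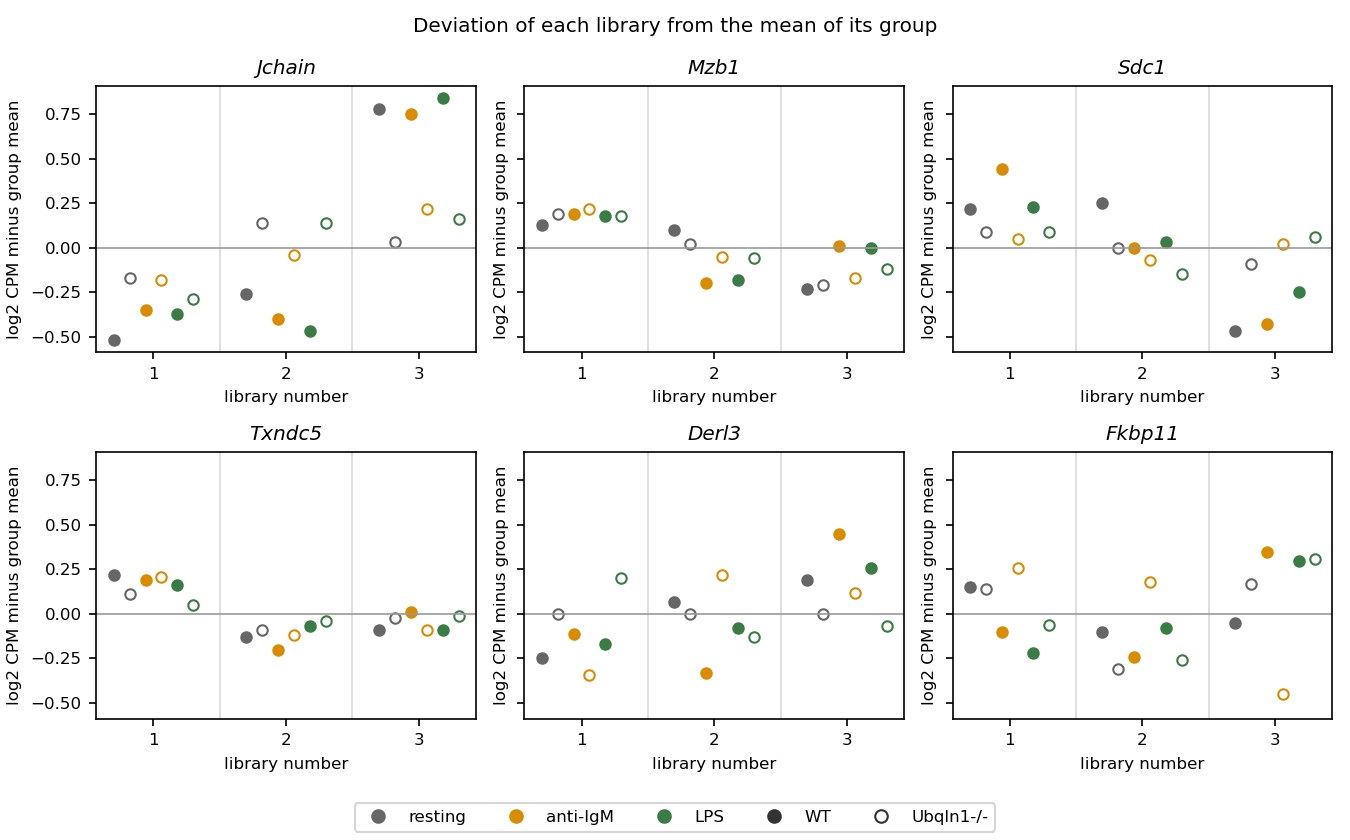
Deviation of log2 CPM from the mean of its group (vertical axis) for each library, by library number (horizontal axis), for the 6 plasma cell genes, with WT filled and Ubqln1-/- open and the condition in color. Jchain and Sdc1 deviate in opposite directions in the WT libraries numbered 3 (0.78 and -0.47 at rest), and Mzb1 and Txndc5 lie above 0 in every library numbered 1.

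Other plasma cell genes were set beside Jchain in the same libraries. Tnfrsf17 had 1, 8 and 7 counts in the resting WT libraries numbered 1 to 3, 0, 3 and 7 counts with anti-IgM and 1, 1 and 8 counts with LPS. The Ubqln1-/- libraries had 1, 4 and 4 counts at rest, 3, 2 and 1 with anti-IgM and 0, 1 and 0 with LPS. Prdm1, which encodes BLIMP1, was at 24.6, 28.7 and 31.9 CPM in resting WT cells and at 17.5, 22.9 and 21.8 CPM in resting Ubqln1-/- cells. With anti-IgM it was at 23.1, 18.9 and 20.3 CPM in WT and at 13.2, 13.8 and 13.1 CPM in Ubqln1-/- libraries, and with LPS at 18.7, 15.7 and 23.9 CPM against 14.1, 14.7 and 19.5 CPM. Its groups were separated at rest and with anti-IgM and overlapped with LPS, with log2 fold changes between genotypes of -0.46 ± 0.15, -0.64 ± 0.16 and -0.27 ± 0.16 (edgeR adjusted p = 0.862, 0.238 and 1.0). With the library number as a block, Prdm1 was called with anti-IgM (-0.64 ± 0.13, edgeR adjusted p = 0.0323). A separation like that of Prdm1, lower in Ubqln1-/- cells, was shown by 3.44% of all genes at rest and 5.08% with anti-IgM. Among other such genes, Pou2af1, Sec11c and Slamf7 had higher means in Ubqln1-/- than in WT cells in every condition, and Irf4 and Xbp1 lower means. Pou2af1 was at 1109 against 1001 CPM at rest and at 567.4 against 519.6 CPM with anti-IgM, with separated groups. Sec11c was separated in the same direction at rest (87.45 against 82.13 CPM). In the lower direction, Irf4 was separated with anti-IgM (1751 against 1927 CPM) and Xbp1 at rest (94.12 against 108.6 CPM). The share of all genes separated in the higher direction was not computed. Over 14 tested plasma cell identity genes, the median log2 fold change was -0.08 at rest, -0.04 with anti-IgM and -0.10 with LPS. Whether the number of plasma cells in a library contributed to its Jchain level was not tested.

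Genes of plasma cell identity other than the 6 changed in both directions, as did all genes tested. Of all genes, 32.4% were called higher and 32.2% lower with anti-IgM in WT cells, and 31.2% and 30.1% with LPS. Of 14 tested, 3 were called higher and 5 lower with anti-IgM in WT cells, and 4 and 6 in Ubqln1-/- cells. Those that rose in WT cells were Irf4, Xbp1 and Slamf7, and those that fell were Edem2, Prdm1, Pou2af1, Tnfrsf13b and Sec11c. The knockout gave the same list with Cd28 added among the higher and Ly6c2 among the lower genes. With LPS, 4 rose and 7 fell in WT cells, and 3 rose and 6 fell in Ubqln1-/- cells. Irf4, Tnfrsf13b and Slamf7 rose with LPS in both genotypes and Ell2 in WT cells. Irf4, the transcription factor induced early after activation, rose from 408.3 ± 22.2 to 1927 ± 63.3 CPM (SD, n = 3) with anti-IgM in WT cells (log2 2.24 ± 0.08, edgeR adjusted p = 9.05e-12) and to 1430 ± 125.2 CPM with LPS (log2 1.81 ± 0.08, edgeR adjusted p = 4.92e-11). Prdm1 fell from 28.4 ± 3.64 to 20.7 ± 2.16 CPM with anti-IgM (log2 -0.46 ± 0.15, edgeR adjusted p = 0.0151) and to 19.4 ± 4.13 CPM with LPS (log2 -0.55 ± 0.15, edgeR adjusted p = 0.0046) in WT cells. Ubqln1-/- cells showed the fall with anti-IgM (log2 -0.64 ± 0.16, edgeR adjusted p = 0.00184), and with LPS its value was -0.37 ± 0.16 (edgeR adjusted p = 0.0522).

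Xbp1, the transcription factor of the secretory program, moved in opposite directions with the stimuli. In WT cells it was at 101.8, 104.4 and 119.7 CPM at rest, 137.1, 121.5 and 139.4 CPM with anti-IgM, and 91.3, 73.7 and 91.4 CPM with LPS. It rose with anti-IgM (log2 0.29 ± 0.11, edgeR adjusted p = 0.0284) and fell with LPS (log2 -0.35 ± 0.11, edgeR adjusted p = 0.011) in WT cells, and likewise in Ubqln1-/- cells (log2 0.35 ± 0.11 and -0.31 ± 0.11, edgeR adjusted p = 0.00918 and 0.023). The counts cover all its exons, and its spliced and unspliced forms were not distinguished. Sec11c, a signal peptidase subunit, fell from 82.1 to 34.3 CPM with anti-IgM in WT cells (log2 -1.26 ± 0.09, edgeR adjusted p = 7.12e-09), and Pou2af1, the octamer coactivator OBF1, from 1001 to 519.6 CPM (log2 -0.95 ± 0.07, edgeR adjusted p = 1.39e-08).

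Most tested genes of the general ER machinery rose with either stimulus, where 32.4% (anti-IgM) and 31.2% (LPS) of all genes were called higher in WT cells. Of 21 tested genes of ER folding and degradation, 17 were called higher and 2 lower with anti-IgM in WT cells and 15 and 2 in Ubqln1-/- cells, and with LPS 14 rose and 3 fell in WT, and 15 rose and 3 fell in Ubqln1-/- cells. Their median log2 fold change with anti-IgM in WT cells was 0.49. Hspa5, the chaperone BiP, rose from 461.5 ± 33.6 to 1224 ± 25.0 CPM with anti-IgM (log2 1.41 ± 0.08, edgeR adjusted p = 4.67e-10) and to 972.6 ± 55.6 CPM with LPS (log2 1.08 ± 0.08, edgeR adjusted p = 1.17e-08). Dnajb9 and Hyou1, which serve BiP, rose by 1.26 ± 0.17 and 1.05 ± 0.09 on the log2 scale with anti-IgM (edgeR adjusted p = 4.69e-06 and 4.89e-08). The 2 that fell with anti-IgM in both genotypes were Syvn1, a ubiquitin ligase of ER degradation, and Ero1b, an ER oxidase, which dropped from 187.2 to 72.9 CPM (log2 -1.36 ± 0.11, edgeR adjusted p = 1.73e-08) in WT cells. The disulfide isomerase Pdia4 joined them with LPS. Of 21 genes of the signal recognition particle, translocon and signal peptidase, 16 were called higher and 0 lower with anti-IgM in each genotype, and 13 and 12 higher with LPS in WT and Ubqln1-/- cells, with 0 lower. Sec61a1, the channel subunit, rose by 0.71 ± 0.05 with anti-IgM in WT cells on the log2 scale (edgeR adjusted p = 1.1e-08), and Ssr1 by 0.70 ± 0.05 (edgeR adjusted p = 6.71e-09).

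Close relatives of the 6 genes moved in both directions, as did all genes tested. The shares over all genes in WT cells were 32.4% higher and 32.2% lower with anti-IgM, and 31.2% and 30.1% with LPS. Of 11 tested syndecans, derlins, FK506-binding proteins and thioredoxin-domain genes, 2 (Fkbp2 and Derl1) were called higher and 3 (Sdc4, Tmx3 and Txndc16) lower with anti-IgM in WT cells, and Ubqln1-/- cells gave the same calls without Derl1. With LPS in WT cells, Derl2, Fkbp2, Sdc3 and Sdc4 were higher and Txndc11, Tmx3 and Txndc16 lower, and Ubqln1-/- cells gave the same calls without Sdc3. Sdc4, another syndecan, went from 136.5 to 74.0 CPM with anti-IgM (log2 -0.88 ± 0.15, edgeR adjusted p = 6.89e-05) and to 205.5 CPM with LPS (log2 0.59 ± 0.15, edgeR adjusted p = 0.00238) in WT cells, where Sdc1 fell with both. Fkbp2, another ER prolyl isomerase, rose from 15.2 to 23.3 CPM with anti-IgM (log2 0.61 ± 0.10, edgeR adjusted p = 4.85e-05), where Fkbp11 fell. Txndc16 fell from 177.6 to 79.0 CPM with LPS (log2 -1.17 ± 0.09, edgeR adjusted p = 3.34e-08) and to 127.4 CPM with anti-IgM (log2 -0.48 ± 0.09, edgeR adjusted p = 0.000228).

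Genes of mature B cell identity fell with anti-IgM and were divided with LPS. Over all genes in WT cells, 32.4% were called higher and 32.2% lower with anti-IgM, and 31.2% and 30.1% with LPS. Of 14 tested, 12 were called lower and 1 (Blk) higher with anti-IgM in each genotype, and with LPS 6 were lower and 3 higher in WT cells. Those higher with LPS in WT cells were Bcl6, Fcer2a and Spib. Pax5, which maintains the B cell program, fell from 180.3 to 52.2 CPM with anti-IgM in WT cells (log2 -1.79 ± 0.12, edgeR adjusted p = 4e-09) and stood at 185.8 CPM with LPS (log2 0.04 ± 0.12, edgeR adjusted p = 0.762). The fall of Mzb1, Sdc1 and Fkbp11 with anti-IgM thus occurred beside a fall of B cell genes in the same libraries, and the part of either in the other was not tested. Marginal zone and B-1 genes, among which Mzb1 is also counted by name, showed no common direction: of 11 others, 6 were called higher and 3 lower with anti-IgM in WT cells and 4 and 3 with LPS. The 3 lower with anti-IgM were Cd1d1, Fcrl5 and Bhlhe41, and the calls with LPS were Cr2, Plscr1, Fcrl5 and Zbtb32 higher and Cd1d1, Myof and Bhlhe41 lower. For Ubqln1-/- cells, Cd5, S1pr3, Dtx1, Plscr1 and Myof were higher and Cd1d1 and Fcrl5 lower with anti-IgM, and Cr2, Plscr1 and Zbtb32 were higher and Cd1d1, S1pr3, Myof and Bhlhe41 lower with LPS. The largest of these changes were in Cd5, at 1.53 CPM at rest and 15.2 CPM with anti-IgM (log2 3.37 ± 0.26, edgeR adjusted p = 1.22e-08), and S1pr3, at 12.6 and 125.9 CPM (log2 3.30 ± 0.26, edgeR adjusted p = 1.59e-08). No gene of any of these lists was called between genotypes in any condition by edgeR without the block, and of 92 tested, 1 had an unadjusted p under 0.05 at rest, 3 with anti-IgM and 5 with LPS. With the library number as a block, 3 of the list genes named here were called: Prdm1 with anti-IgM, as given above, and Slamf7 (log2 0.31 ± 0.06, edgeR adjusted p = 0.0178) and Myof (log2 -0.42 ± 0.08, edgeR adjusted p = 0.0188) with LPS.

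**Figure D5:**
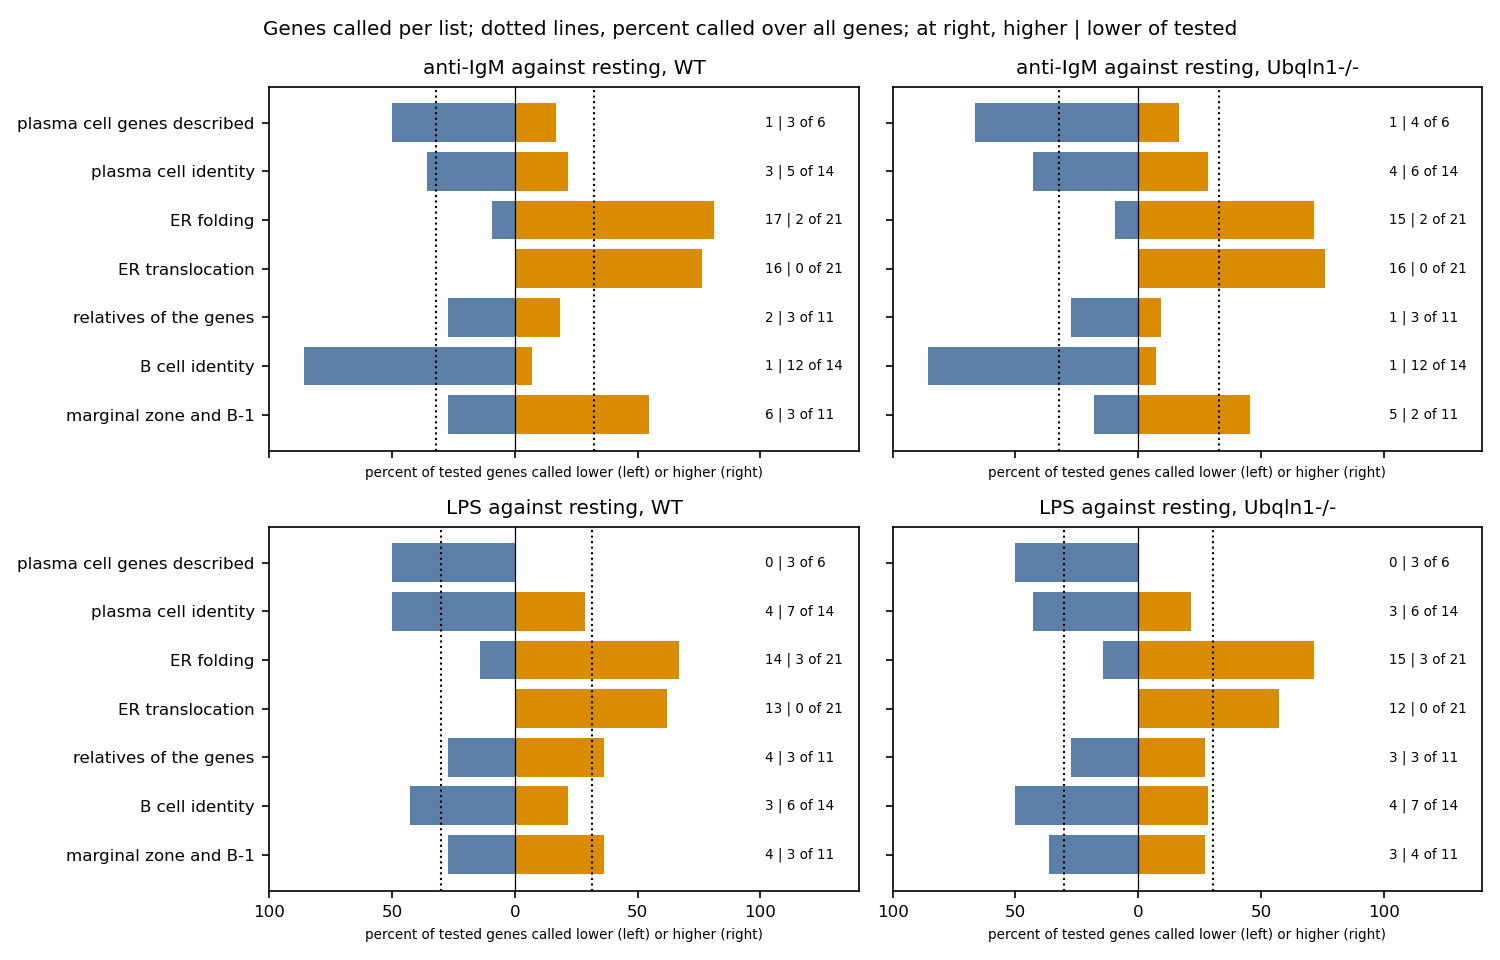
Percent of tested genes in each list called lower (left, blue) or higher (right, orange) by edgeR for anti-IgM and LPS against resting, in WT and Ubqln1-/- cells. Dotted lines mark the percent called over all genes, and the counts stand at the right of each bar. ER folding and ER translocation genes extend to the right (17 and 16 of 21 with anti-IgM in WT), B cell identity genes extend to the left with anti-IgM (12 of 14), and the 6 plasma cell genes extend mainly to the left.

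For each of the 6 genes, the tested genes with the most similar pattern were listed by Pearson's r of log2 CPM over the 18 libraries. Jchain was most like ND6 (r = 0.928), Emp2 (0.921) and Nt5e (0.911), and, after group means were subtracted, most like Bmp2k (0.954), Usp26 (0.946) and Entrez gene 16061 (0.944). Emp2 and Usp26 had at most 33 and 28 counts. Mzb1 was most like Ppp1ca (0.986), Rrm2b (0.986) and Gimap1 (0.985), and Sdc1 most like Entrez gene 100862277 (0.994), Bhlhe41 (0.981) and Natd1 (0.979). Bhlhe41, a transcription factor of B-1 cells, ranged from 5.41 to 48.3 CPM. Fkbp11 was most like Fes (0.966), Cklf (0.964) and Ids (0.952), Txndc5 most like Eml4 (0.935), Cd180 (0.928) and Lck (0.928), and Derl3 most like Mapk12 (0.876), Pkib (0.873) and Entrez gene 100502995 (0.872). After subtraction of group means, Mzb1 was most like Rnu7 (0.944), Sdc1 like Safb2 (0.967), Derl3 like Kctd17 (0.855), Fkbp11 like Mmp19 (0.839) and Txndc5 like Ints7 (0.943). These genes were picked from 14161 by their r over 18 libraries, and the r that an arbitrary pattern would reach was not tested. None of the 6 genes was among the 3 most like another.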

How the data were processed

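RNASeq libraries were made with a TruSeq v2 kit from polyA RNA and sequenced as single-end 50 base reads. Reads were aligned to GRCm38 with GSNAP by the authors, who deposited the raw count of every Entrez gene over its exons in each of 18 libraries, with the exonic width of the gene (another deposited column, in bases). The counting program and annotation release are not given in the sources used here. Condition, genotype and number came from the labels, and libraries without a number were numbered 1 by elimination. Gene names came from RefSeq, or from GENCODE where RefSeq had none (89.2% of 28096 genes matched in all). The deposited RPKM was not used, and RPKM here is the count over width and TMM-scaled library size.

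Counts were tested with edgeR 4.0.16 (TMM, filterByExpr, quasi-likelihood test, 1 term for each of 6 groups, all 18 libraries, no block) in R 4.3.3, with Benjamini-Hochberg adjustment over 14161 genes. limma 3.58.1 with voom, which the study used, and DESeq2 1.42.0 were alternatives. The scripts were tested on simulated data. Log2 CPM for correlations used a prior count of 2. In the 6 comparisons of stimuli, same-numbered libraries deviated together (r of deviations from group means over genes, 0.228 to 0.516 in 18 pairs), so the numbers pair libraries within a genotype. Between genotypes r was 0.083 to 0.388, and the replicate block nevertheless gave each number the same effect in both genotypes. Libraries of a group differed by more than sampling noise (chi-square per degree of freedom of at least 7.81), so each was counted as 1 sample.

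The 6 genes and all lists were chosen with earlier results of these data known. Named list genes are up to 4 per list with the largest change in WT among those called in both genotypes at 10 CPM or more, and those that a count of at most 5 refers to. Immunoglobulin constant genes and Hbb-bt were not analysed here. Results for 1 further listed gene are not reported here.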

Additional observations from a re-analysis of the deposited data

How the results depend on the processing

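Fold changes of the 6 genes kept their direction wherever they were called, and of 966 values under alternatives 945 stayed on the same side of the threshold, 14 lost the call and 7 gained it. Under the thresholds of the study (absolute log2 fold change over 2 and adjusted p under 0.001), 0 of the 6 were called with anti-IgM in WT, 0 with anti-IgM in Ubqln1-/- cells, 1 with LPS in WT, 1 with LPS in Ubqln1-/- cells, 0 for LPS against anti-IgM in WT and 0 in Ubqln1-/- cells. For anti-IgM in Ubqln1-/- cells, 3 instead of 5 were called when every gene with at least 1 count was tested (Sdc1 and Derl3 were lost), and 2 to 4 when 1 library was left out. The replicate block added Jchain with LPS in Ubqln1-/- cells (4 called instead of 3) and changed no other call of the 6 genes. The count of the 6 genes called between genotypes was 0 under every alternative run. Over all genes, calls between genotypes at rest, with anti-IgM and with LPS were 8, 14 and 6, and 32, 47 and 51 with DESeq2, 49, 94 and 125 with the replicate block, and 5, 2 and 2 with only the libraries compared. When 1 library was left out they ranged from 2 to 11, 2 to 10 and 2 to 37, the last value and 10 genes called for the difference of the LPS response arising without the WT LPS library numbered 2. The cause was not tested. Depth limits Derl3 and Fkbp11, which had at most 114 counts. With 3 libraries a group, p-values of the main fit weigh a difference against the spread between libraries, estimated over all 18 libraries in 6 groups.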
